A study of Mus musculus with 6 samples.

Results

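The genes described here are 10 of the 23565 in a count table from mouse small-intestinal crypt cells. They are Nlrc5, the MHC class I genes B2m, H2-K1 and H2-D1, the peptide transport and loading genes Tap1, Tap2 and Tapbp, and the immunoproteasome genes Psmb8, Psmb9 and Psmb10. They were chosen by name with earlier results of this comparison known, including the spread among the Lgr5-CreER libraries, so their values are given as a description and without a test. All 10 were found in the table and passed the filter on low counts. Bulk RNA was measured in 6 libraries, 3 for each genotype, and the series states 3 mice per genotype. From HopXCreER::Rosa26LSL-tdTomato mice the tdTomato-positive cells were sorted, and from Lgr5eGFP-IRES-CreER::Rosa26LSL-tdTomato animals the cells positive for both eGFP and tdTomato. Both groups carried a tamoxifen-inducible Cre and the same Rosa26 reporter, which makes the red protein tdTomato in cells where Cre has acted, and both received 1 mg of tamoxifen 16 hours before the crypts were taken. Cre was expressed from the Hopx or from the Lgr5 locus, and the Lgr5 allele also makes eGFP. Genotype and sorting gate thus differed together and cannot be told apart, and neither the strain nor the age of the mice is given in the labels used here.

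MHC class I molecules show peptides from inside the cell to CD8 T cells. Cytosolic proteins are cut by the proteasome, whose constitutive catalytic subunits can be exchanged for the interferon-inducible immunoproteasome subunits. The peptides are carried into the endoplasmic reticulum by the TAP transporter, are loaded with the help of tapasin onto a heavy chain paired with beta-2-microglobulin, and reach the cell surface. NLRC5 is the class I transactivator, an interferon-inducible protein without a DNA-binding domain of its own that is recruited to class I promoters by bound factors, as its relative CIITA is to class II promoters. In the intestine, epithelial cells carry class I constitutively, and interferon gamma raises both the class I pathway and, in these cells, class II.

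The 10 genes lie on 3 chromosomes of GRCm38. Tapbp, H2-K1, Psmb9, Tap1, Psmb8, Tap2 and H2-D1, in that order, lie within 1.35 Mb of chromosome 17, from 33915899 to 35267499. Tap1 (34187553 to 34197225, plus strand) and Psmb9 (34181987 to 34187764, minus strand) lie head to head, and their annotated ends overlap by 212 bases. B2m lies on chromosome 2 (122147686 to 122153083, plus strand), and Nlrc5 (94434356 to 94527272, plus strand) and Psmb10 (105935735 to 105938444, minus strand) lie on chromosome 8. The promoters of the heavy chains and of B2m are shown because NLRC5 is known to act on such promoters and because these genes stood high or low in the same libraries. The letters searched, in both orientations and chosen with the sequences in view, were GGGATTCCC (like a kappa B site), GAANNGAAA or GAANNNGAAA (like an interferon-stimulated response element), TGACG (like a cyclic AMP response element) and CCAAT, and matches are in capitals. Sequences are from RefSeq (GRCm38.p6), 5′ to 3′ on the strand of the named gene. The H2-K1 stretch (chr17:34000348-34000507, minus strand) runs from -160 to -1 of the start site, and the B2m stretch (chr2:122147527-122147685, plus strand) from -160 to -2. The H2-D1 stretch (chr17:35262923-35262952, plus strand) lies upstream of the RefSeq start site, within an exon of a longer GENCODE transcript. The stretch between Tap1 and Psmb9 (chr17:34187458-34187487, plus strand) lies within an exon of a longer Psmb9 transcript.
H2-K1: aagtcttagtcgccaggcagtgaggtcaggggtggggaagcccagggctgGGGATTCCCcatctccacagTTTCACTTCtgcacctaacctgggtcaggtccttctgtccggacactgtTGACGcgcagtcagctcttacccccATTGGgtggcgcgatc
H2-D1: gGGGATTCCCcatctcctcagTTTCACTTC
B2m: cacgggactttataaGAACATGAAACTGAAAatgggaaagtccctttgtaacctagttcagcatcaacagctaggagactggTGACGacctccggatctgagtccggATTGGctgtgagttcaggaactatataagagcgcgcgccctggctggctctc
Tap1 and Psmb9: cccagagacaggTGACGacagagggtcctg

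The 160 bases of H2-K1 matched the H2-D1 promoter at 144 positions (90.0%). A promoter window of 250 bases before to 50 after the start was at hand for 8 of the 10 genes (not for Nlrc5 and Tap2). GGGATTCCC was found in H2-K1 and H2-D1, against 0.353% of 32851 mouse promoter windows. TGACG was found in 5 of the 8 genes (B2m, H2-K1, H2-D1, Tap1 and Psmb9), against 20.8% of windows, and CCAAT in 6 of the 8 (those and Tapbp), against 37.4%. The windows of Tap1 and Psmb9 overlap, so both genes count the same TGACG site and the same CCAAT site. GAANNGAAA was found in H2-K1 and H2-D1 (7.52% of windows) and GAANNNGAAA in B2m (7.87%). The windows of Psmb8 and Psmb10 held none of these letters. A match describes the letters and is no evidence of binding.

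Each library held 10839306 to 14570555 counts. Levels are in CPM (counts scaled to a common library size with TMM factors), and 3 counts were worth 0.201 to 0.278 CPM. The library numbers used here follow the columns and serve as names. In the table, Lgr5-CreER libraries 2 and 3 carry the same number in their column names, and the labels do not say whether 1 mouse gave both. Over 8165 genes averaging 10 CPM or more, the SD of log2 differences was 0.258 between that pair and 0.325 to 0.587 between the other libraries of a group. The largest values were those of Hopx-CreER library 3, 0.587 from library 1 and 0.562 from library 2, against 0.325 between Hopx-CreER libraries 1 and 2. The column name of Hopx-CreER library 3 alone carries an added tag after the gate, which the labels used here do not explain. Epithelial markers summed to 17487 to 19437 CPM in Hopx-CreER and 12083 to 13014 CPM in Lgr5-CreER libraries, and edgeR called 3 of the 8 higher in Hopx-CreER cells. Of the genes whose loci carried Cre, Hopx stood at 44.9, 64.2 and 53.7 CPM in Hopx-CreER libraries 1 to 3 and at 94.3, 87.9 and 87.1 CPM in Lgr5-CreER libraries 1 to 3. Lgr5 stood at 52.8, 50.3 and 21.0 CPM against 103, 110.5 and 109.6 CPM. Both were thus lower in Hopx-CreER cells (edgeR quasi-likelihood adjusted p 0.0131 and 0.0147), and neither level checks which locus carried the Cre.

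Nlrc5, the class I transactivator (ENSMUSG00000074151.13), was the member that differed most between the groups. It had 82, 60 and 104 counts in Hopx-CreER libraries 1 to 3, or 6.18, 5.07 and 9.65 CPM. In Lgr5-CreER libraries 1 to 3 it had 209, 447 and 372 counts, or 14.0, 38.6 and 25.6 CPM. Every Lgr5-CreER library thus lay above every Hopx-CreER library, with library 1 nearest to them. The means were 6.97 ± 2.39 CPM (SD, n = 3) and 26.1 ± 12.3 CPM, and the fitted log2 fold change (Hopx-CreER relative to Lgr5-CreER throughout) was -1.90 ± 0.39 (SE), or 3.74-fold higher in Lgr5-CreER cells. In bulk RNA, fewer cells that make a transcript and less of it per cell cannot be told apart. Within the Lgr5-CreER group the highest library was 2.76 times the lowest, and within the Hopx-CreER group 1.90 times. The mean of Lgr5-CreER libraries 2 and 3 was 4.61 times the Hopx-CreER mean, while library 1 was 2.01 times that mean. The log2 fold change ran from -2.22 to -1.51 when 1 library was left out, and was -1.01 with Lgr5-CreER library 1 as the only library of its group.

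The 5 genes most like Nlrc5 over the 6 libraries were 0610010F05Rik, Icam1, Sectm1a, Pik3ap1 and Fgf16. Likeness was the root mean square difference of log2 CPM after removal of each gene's own mean, among the 11914 tested genes that averaged 1 CPM or more. It was 0.163 for 0610010F05Rik, which averaged 0.477 CPM in Hopx-CreER and 2.196 CPM in Lgr5-CreER libraries. It was 0.324 for Icam1, an adhesion molecule that binds leukocyte integrins, at 8.59, 7.61 and 9.55 CPM against 13.3, 29.7 and 26.5 CPM. It was 0.352 for Sectm1a, 0.374 for Pik3ap1, an adaptor of phosphoinositide 3-kinase, and 0.379 for Fgf16, a fibroblast growth factor. The other 9 members lay farther from Nlrc5, at 0.819 (H2-K1) to 1.13 (Psmb10).

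**Figure D1:**
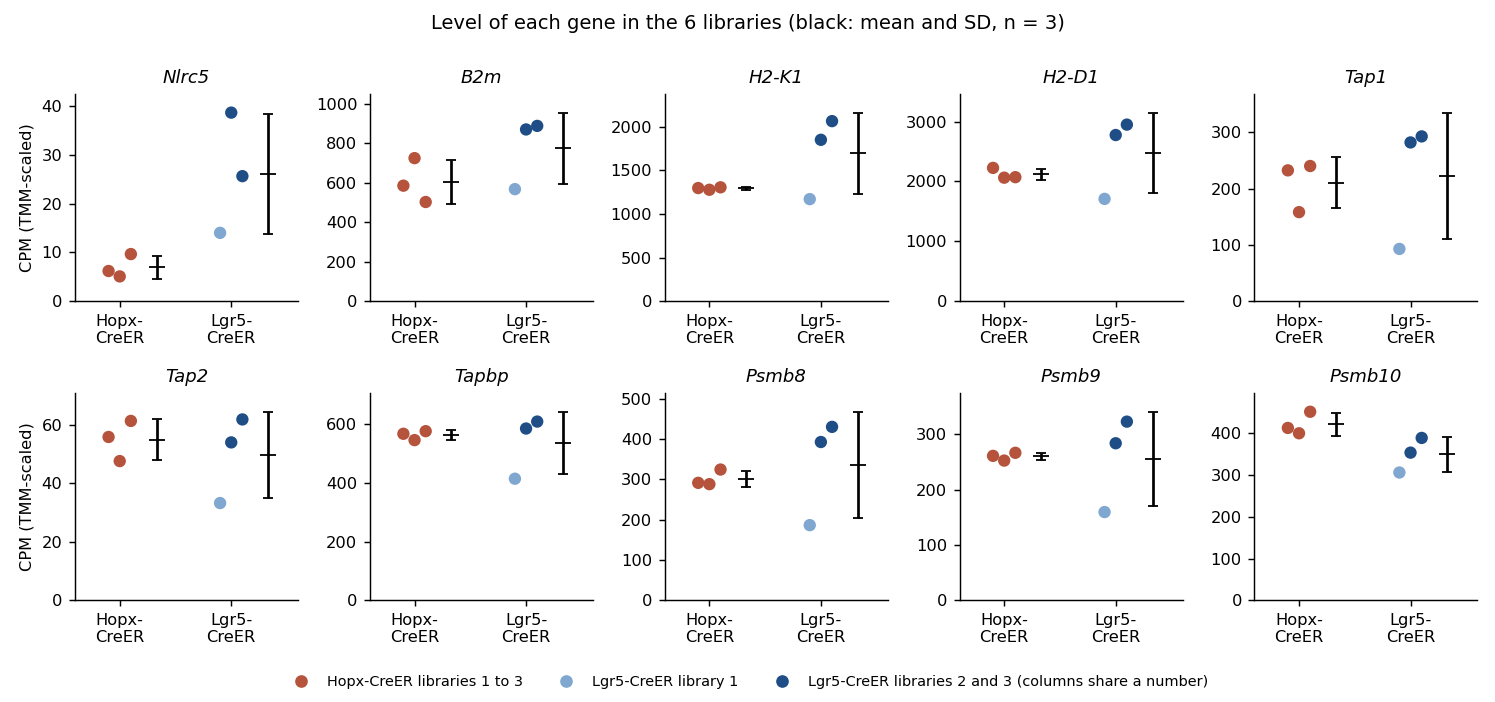
Level of each of the 10 genes in CPM (linear axes from 0) in every library, as points, with the group mean and SD (n = 3) in black. In each panel Lgr5-CreER library 1 (light blue) is the lowest of the Lgr5-CreER libraries, and for Nlrc5 it lies above all 3 Hopx-CreER libraries.

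B2m, H2-K1 and H2-D1, which make up the surface molecule, were abundant in both groups, and their groups overlapped. B2m (ENSMUSG00000060802.8), the light chain shared by all class I molecules, stood at 586, 725 and 503 CPM in Hopx-CreER libraries and at 568, 871 and 889 CPM in Lgr5-CreER libraries 1 to 3. H2-K1 (ENSMUSG00000061232.15), a classical heavy chain, stood at 1297, 1278 and 1306 CPM against 1170.2, 1851 and 2065 CPM. H2-D1 (ENSMUSG00000073411.11), the other classical heavy chain, stood at 2226, 2063 and 2071 CPM against 1708, 2775 and 2949 CPM. The pattern was the same in all 3 genes: Lgr5-CreER libraries 2 and 3 lay above every Hopx-CreER library, and Lgr5-CreER library 1 lay within (B2m) or below (H2-K1, H2-D1) the Hopx-CreER range. The log2 fold changes were -0.36 ± 0.19 (SE) for B2m, -0.39 ± 0.19 for H2-K1 and -0.22 ± 0.19 for H2-D1. The 3 Hopx-CreER libraries lay within 1.02 times of each other for H2-K1 and 1.08 times for H2-D1, while the Lgr5-CreER libraries spanned 1.76 and 1.73 times. Of the 31-base words of the longest H2-K1 and H2-D1 transcripts, 23.3% and 27.7% also occur in transcripts of other genes, and 16.9% and 12.9% in each other's. The split of counts between these heavy chains is therefore uncertain, and it depends on a reference of 1 haplotype while the haplotype of these mice is not given.

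Tap1, Tap2 and Tapbp, which move peptides to the heavy chain, gave group means close to each other, with the Hopx-CreER libraries between the Lgr5-CreER ones. Tap1, a chain of the peptide transporter, stood at 233, 158 and 240.3 CPM in Hopx-CreER libraries and at 92.9, 282 and 293 CPM in Lgr5-CreER libraries 1 to 3. Its Lgr5-CreER libraries 2 and 3 were on average 3.10 times library 1, a wider gap than for any other member. Tap2, the other transporter chain, stood at 55.7, 47.5 and 61.2 CPM against 33.2, 53.9 and 61.7 CPM. Tapbp, which encodes tapasin, stood at 568, 546 and 577 CPM against 415, 586 and 609.6 CPM. For each of the 3 genes, Lgr5-CreER library 1 was the lowest of all 6 libraries. Library 1 reached 0.442, 0.605 and 0.736 times the Hopx-CreER mean for Tap1, Tap2 and Tapbp, and the mean of libraries 2 and 3 reached 1.37, 1.05 and 1.06 times it. The log2 fold changes over all libraries were -0.08 ± 0.36 (SE), 0.14 ± 0.22 and 0.07 ± 0.15. Tap1 stood at 1.18 with Lgr5-CreER library 1 alone in its group and at -0.45 without that library, so its direction depended on the Lgr5-CreER libraries used. The kits named in the labels do not mark the strand, and 6.23% of Tap1 words also occur in Psmb9 transcripts. The opposite-strand transcripts Gm15821 and Gm19412 share 12.1% of Tap2 words and 20.9% of Tapbp words, and reads from those stretches cannot be told apart.

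**Figure D2:**
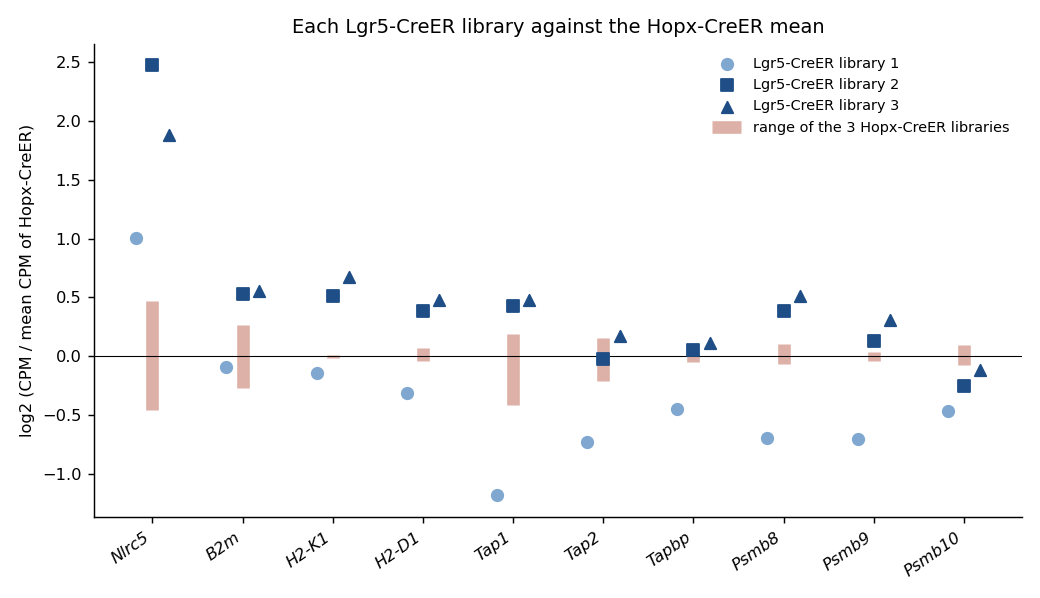
log2 ratio of each Lgr5-CreER library to the mean of the 3 Hopx-CreER libraries, per gene, with the range of the Hopx-CreER libraries as red bars. Library 1 lies lowest for each gene, at 0.442 times the Hopx-CreER mean for Tap1, and libraries 2 and 3 lie at or above 0 for most genes, with Psmb10 below it.

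The immunoproteasome subunits Psmb8 and Psmb9 followed the same order of libraries, and Psmb10 did so with a smaller range. Psmb8 (the LMP7 subunit, which replaces Psmb5) stood at 291, 288 and 324 CPM in Hopx-CreER libraries and at 186, 392 and 430.0 CPM in Lgr5-CreER libraries 1 to 3. Psmb9 (LMP2, which replaces Psmb6) stood at 261, 253 and 267 CPM against 159.6, 284 and 323 CPM. Psmb10 (MECL-1, which replaces Psmb7) stood at 413, 400.0 and 452 CPM against 306, 354 and 389 CPM. For Psmb8 and Psmb9, Lgr5-CreER library 1 lay below and libraries 2 and 3 lay above all Hopx-CreER libraries, whereas for Psmb10 all Lgr5-CreER libraries lay below all Hopx-CreER libraries. The log2 fold changes were -0.16 ± 0.26 (SE) for Psmb8, 0.03 ± 0.22 for Psmb9 and 0.27 ± 0.12 for Psmb10. With Lgr5-CreER library 1 alone in its group they were 0.69, 0.70 and 0.46, and without it -0.45, -0.22 and 0.18. Of Psmb9 words, 13.8% occur in Tap1 transcripts, and 8.14% of Psmb8 words occur in the antisense gene Gm20496.

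The constitutive catalytic subunits, tested here as genes outside the chosen 10, did not follow that order. Psmb5, the subunit replaced by Psmb8, stood at 119, 153 and 129.7 CPM in Hopx-CreER libraries and at 172, 123 and 129.8 CPM in Lgr5-CreER libraries 1 to 3, so that library 1 was the highest of the 6. Psmb6 stood at 395, 456 and 471 CPM against 430.4, 353 and 407 CPM, and Psmb7 at 79.9, 83.1 and 90.1 CPM against 81.9, 72.6 and 87.0 CPM. The edgeR adjusted p between groups was 0.77, 0.45 and 0.753 for Psmb5, Psmb6 and Psmb7 (log2 fold changes -0.08 ± 0.16, 0.15 ± 0.12 and 0.07 ± 0.12). Per kilobase of transcript, the Psmb8 to Psmb5 ratio stood at 1.35, 1.04 and 1.38 in Hopx-CreER libraries, against 0.597, 1.76 and 1.83 in Lgr5-CreER libraries 1 to 3. The ratio of Psmb9 to Psmb6 was 0.391, 0.327 and 0.335 against 0.219, 0.475 and 0.468, and that of Psmb10 to Psmb7 was 4.57, 4.26 and 4.44 against 3.31, 4.31 and 3.96. Lgr5-CreER library 1 thus had the lowest share of immunoproteasome transcript of the 6 libraries for each pair of subunits.

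**Figure D3:**
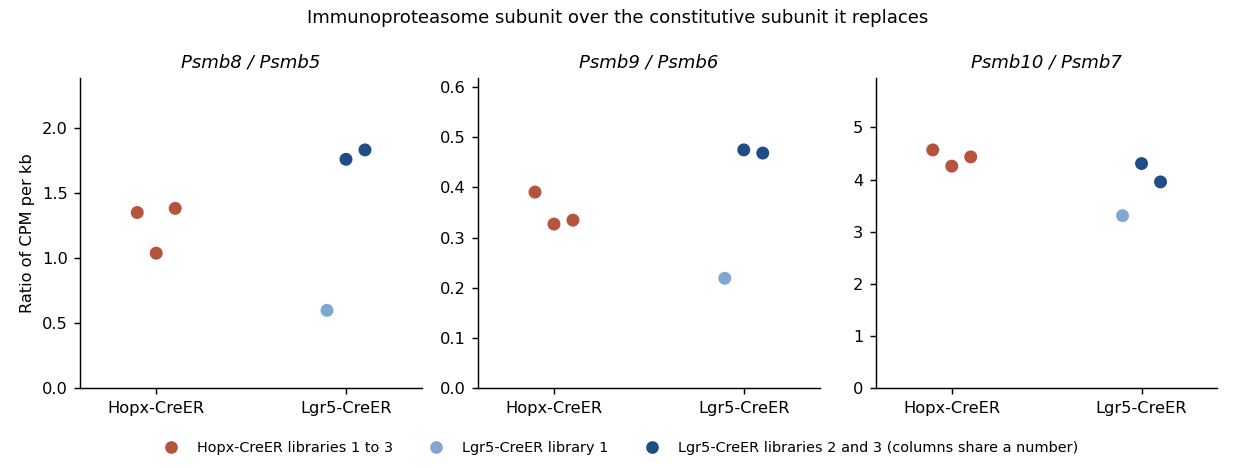
Ratio of an immunoproteasome subunit to the constitutive subunit it replaces, in CPM per kb of longest transcript, 1 point per library (linear axes from 0). Lgr5-CreER library 1 is the lowest point in each panel, at 0.597 for Psmb8 over Psmb5, against 1.76 and 1.83 in Lgr5-CreER libraries 2 and 3.

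On the scale of CPM per kb of the longest coding transcript, H2-D1 had the highest mean level and Nlrc5 the lowest in both groups. In Hopx-CreER cells the means were 1008 ± 43.8 (SD, n = 3) for H2-D1, 799 ± 8.92 for H2-K1 and 703 ± 131 for B2m (these last within their spread of each other), followed by Psmb10 at 321 ± 20.5. Tapbp (195 ± 5.41), Psmb9 (193 ± 5.24) and Psmb8 (185 ± 12.3) lay within their spread of each other, though Tapbp was above Psmb9 in each library. Tap1 (71.2 ± 15.3), Tap2 (15.9 ± 2.0) and Nlrc5 (0.919 ± 0.315) were lower. In Lgr5-CreER cells the means of H2-D1 (1179 ± 319), H2-K1 (1047 ± 288) and B2m (902 ± 209) lay within their SDs of each other. Their order was nevertheless the same in each Lgr5-CreER library. H2-D1, H2-K1 and B2m stood at 813, 723 and 660 in library 1, at 1320, 1143 and 1012 in library 2, and at 1403, 1275 and 1033 in library 3. Psmb10 stood at 267 ± 31.7. The middle group was Psmb8 (207 ± 80.6), Psmb9 (189 ± 63.2) and Tapbp (185 ± 36.7), again within their spread, above Tap1 (75.4 ± 38.1), Tap2 (14.4 ± 4.28) and Nlrc5 (3.44 ± 1.63).

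Over the 10 genes, the spread was in the Lgr5-CreER group. The median SD of log2 CPM (prior count 2) was 0.45 among Lgr5-CreER libraries and 0.09 among Hopx-CreER libraries, where all 12439 tested genes gave 0.18 and 0.27. Lgr5-CreER library 1 was the lowest of its group for 10 of 10 genes, against 34.6% of tested genes, and library 3 the highest for 9 of them, library 2 being highest for Nlrc5. The mean of Lgr5-CreER libraries 2 and 3 was above library 1 by a median of 0.77 on the log2 scale, against -0.00 over the 12340 tested genes present in each Lgr5-CreER library. It was above by more than 0.5 for 9 of the 10 genes, against 10.6% of those genes, the exception being Psmb10. Between libraries 2 and 3 the median absolute log2 difference was 0.13 over the 10 genes and 0.19 over those genes. With 1 library against 2, this shift was not tested.

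Against the Hopx-CreER cells, 1 of the 10 genes, Nlrc5, passed the edgeR threshold of 0.05 on the adjusted p, while 12.8% of the 12439 tested genes did (9.45% higher and 3.3% lower in Hopx-CreER cells). The members were chosen with this contrast known, so nothing is read from that count. Without Hopx-CreER library 2, without Lgr5-CreER library 2 or after summing the same-numbered columns, the Nlrc5 call ended and 0 of the 10 genes passed. In the fit to all 6 libraries, the median log2 fold change was -0.12 for the 10 genes and -0.03 for tested genes. By sign, 6 of the 10 were lower in Hopx-CreER cells, 8 with library totals in place of TMM factors, which moved the median of all genes by -0.11, and 9 with GC offsets. Groups did not overlap for 2 of the 10, Nlrc5 (lower in Hopx-CreER) and Psmb10 (higher), against 34.9% of tested genes (16.2% lower and 18.8% higher). All 3 Hopx-CreER libraries lay below both Lgr5-CreER libraries 2 and 3 for 8 of the 10 (not Tap2 and Psmb10), against 21.5% of tested genes. The median log2 fold change of the 10 genes was -0.44 without Lgr5-CreER library 1 (9 genes lower in Hopx-CreER cells), 0.07 after summing the same-numbered columns, and 0.45 with library 1 alone (9 genes higher).

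**Figure D4:**
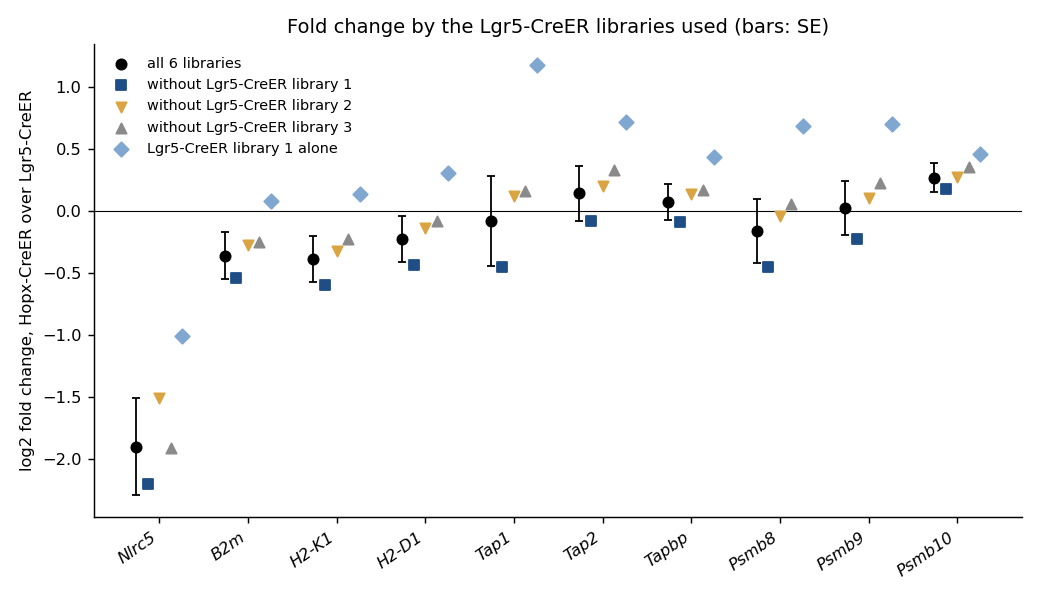
log2 fold change of each gene by the Lgr5-CreER libraries used, with the SE of the fit to all 6 libraries as bars. Points above 0 are higher in Hopx-CreER cells. Nlrc5 lies below 0 in each fit shown, and for 8 of the other genes the value without library 1 (dark blue) is below 0 and that with library 1 alone (light blue) is above 0, while Psmb10 lies above 0 throughout.

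Other class I genes split between the groups. Fcgrt, the neonatal Fc receptor, rose in Hopx-CreER cells by 1.46 ± 0.17 (SE, log2; 154, 145 and 141 CPM against 44.8, 46.4 and 68.8 CPM; edgeR adjusted p 0.00122). H2-Q6 and H2-Q7, class I genes of the Q region, fell by 1.52 ± 0.30 and 1.49 ± 0.34 on the log2 scale (adjusted p 0.0105 and 0.0201, edgeR). H2-Q6 stood at 49.4, 47.8 and 43.0 CPM against 68.6, 168 and 165 CPM, and H2-Q7 at 71.0, 57.6 and 50.2 CPM against 77.8, 204 and 221 CPM, so that Lgr5-CreER library 1 was again the one nearest to the Hopx-CreER libraries. Of the 20 listed genes 15 were tested, and 3 of them were higher, 2 were lower and 10 missed the threshold; H2-Q1 and H2-T3, named after their values were seen, were the other higher ones. The higher count was 1 without Lgr5-CreER library 1 or 2, and 2 without Hopx-CreER library 1 or Lgr5-CreER library 3. Leaving out Lgr5-CreER library 2 left 0 lower genes, and leaving out library 3 left 1. The median log2 fold change of the list was -0.17. The mean of Lgr5-CreER libraries 2 and 3 exceeded library 1 by more than 0.5 on the log2 scale for 10 of the 15. The H2-Q6 call ended without Lgr5-CreER library 2 (edgeR adjusted p 0.0501), and the H2-Q7 call without Hopx-CreER library 2 (0.0675), Lgr5-CreER library 2 (0.0824) or library 3 (0.0794). Summing the same-numbered columns ended both (0.0515 and 0.0823) and left 1 higher and 0 lower genes on the list. The edgeR and DESeq2 adjusted p had ranges of 4.02e-06 to 0.384 and 4.77e-05 to 0.623 over all alternatives. Reads can be shared among these near-identical genes.

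Further listed genes of the same pathway, outside the 10 and the other class I genes, showed 0 calls by edgeR. These were 12 genes of peptide loading and glycoprotein quality control (median log2 fold change -0.01), 7 cytosolic peptidases (-0.25), 11 other subunits of the 20S core (0.10) and 10 proteasome activators and assembly factors (-0.01). At an unadjusted p under 0.05, 0, 1, 0 and 0 of them passed, and DESeq2 called 0 in each list. Bcap31, an export receptor of the endoplasmic reticulum, had a log2 fold change of 0.26 ± 0.12 (SE; edgeR adjusted p 0.191), and Erap1, which trims peptides there, -0.42 ± 0.27 (edgeR adjusted p 0.352). Blmh, a cytosolic peptidase, had -0.28 ± 0.10 (edgeR adjusted p 0.1) and Psmb3, a core subunit, 0.22 ± 0.12 (edgeR adjusted p 0.275). Within the Lgr5-CreER group, libraries 2 and 3 exceeded library 1 by more than 0.5 on the log2 scale for 1 of 12, 0 of 7, 0 of 11 and 1 of 10 of these genes, and for 0 of the 3 constitutive catalytic subunits. The genes that did so, named after their values were seen, were Tapbpl of the loading list (0.70) and Psme4 of the activators (1.33).

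Of the listed regulators of class I and class II genes, Ciita, the class II transactivator, fell in Hopx-CreER cells by 1.15 ± 0.33 (SE, log2; 50.3, 38.3 and 43.0 CPM against 46.99, 137 and 108 CPM; edgeR adjusted p 0.0496). Lgr5-CreER library 1 lay among the Hopx-CreER libraries. That call ended without any 1 library other than Lgr5-CreER library 1 (edgeR adjusted p 0.0548 to 0.189), and after summing the same-numbered columns (0.166; range 0.00153 to 0.927 over all alternatives). The subunits of the factors onto which NLRC5 assembles were measured without a call: Rfxank, an RFX subunit, had a log2 fold change of 0.60 ± 0.19 (edgeR adjusted p 0.0713) and Nfya, of the CCAAT-binding factor NF-Y, -0.94 ± 0.29 (edgeR adjusted p 0.0654). Of 17 tested factors, edgeR called 0 higher and 1 lower and 16 missed the threshold, with a median log2 fold change of -0.14. Irf1, an interferon-responsive transcription factor named after its values were seen, stood at 474, 409 and 552 CPM in Hopx-CreER libraries and at 338, 543 and 641 CPM in Lgr5-CreER libraries 1 to 3. It was thus lowest of all 6 libraries in Lgr5-CreER library 1, as Tap1 was.

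The summed levels of interferon-induced genes and of MHC class II genes showed the same order of Lgr5-CreER libraries, though not every listed interferon-induced gene did. The 32 listed interferon-induced genes summed to 605, 431 and 482 CPM in Hopx-CreER libraries and to 333, 913 and 987 CPM in Lgr5-CreER libraries 1 to 3. Tgtp1, an interferon-gamma-induced GTPase, stood at 4.44, 2.03 and 1.95 CPM against 1.81, 30.9 and 32.5 CPM (log2 fold change -2.93 ± 0.86; edgeR adjusted p 0.0541, and 0.00362 without Lgr5-CreER library 1, within 0.000863 to 0.815 over all alternatives). Bst2, an antiviral membrane protein, had -0.62 ± 0.19 (edgeR adjusted p 0.0639). Usp18, which dampens type I interferon signalling, went the other way between the groups, rising in Hopx-CreER cells by 2.57 ± 0.49 (edgeR adjusted p 0.00925). It stood at 8.96, 12.5 and 12.9 CPM against 0.602, 2.50 and 2.68 CPM, so within the Lgr5-CreER group library 1 was again lowest. Of 22 tested genes, edgeR called 1 higher and 0 lower, and 21 missed the threshold, while 6 passed at an unadjusted p under 0.05. DESeq2 gave an adjusted p for 30 listed genes and called 1 higher and 3 lower. Without Lgr5-CreER library 1, edgeR tested 26 and called 8 lower. These 8 calls and the Tgtp1 value without library 1 rested on the same-numbered columns, and the labels do not say whether 1 mouse gave both. The lower count was 0, 1 and 1 without Hopx-CreER libraries 1, 2 and 3. It was 0 without Lgr5-CreER library 2 or 3, and 0 with the same-numbered columns summed. The pair of Lgr5-CreER libraries exceeded library 1 by more than 0.5 on the log2 scale for 16 of the 22, with a median of 1.90.

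The 10 listed class II genes summed to 5727, 6186 and 5312 CPM in Hopx-CreER libraries and to 6597, 10853 and 12146 CPM in Lgr5-CreER libraries 1 to 3. Of these, H2-Eb1, H2-Ab1 and H2-Aa fell in Hopx-CreER cells by 0.93 ± 0.20, 0.90 ± 0.23 and 0.92 ± 0.24 on the log2 scale (adjusted p 0.0167, 0.0313 and 0.0385 by edgeR), with 5 of 8 tested class II genes lower and the pair above library 1 by more than 0.5 for 8 of 8. The class II list gave 1, 0 and 4 lower genes without Hopx-CreER libraries 1, 2 and 3, and 8, 0 and 0 without Lgr5-CreER libraries 1, 2 and 3. Summing the same-numbered columns, the only Lgr5-CreER ones left without library 1, gave 0 lower genes of 8. Of 12 interferon receptors, Janus kinases and feedback inhibitors, 0 were called by edgeR, 4 passed at an unadjusted p under 0.05 and DESeq2 called 1. Socs3, a feedback inhibitor of cytokine receptors, stood at 57.2, 37.8 and 57.8 CPM in Hopx-CreER libraries and at 42.0, 18.6 and 21.2 CPM in Lgr5-CreER libraries 1 to 3 (log2 fold change 0.90 ± 0.31; edgeR adjusted p 0.0937). Among Lgr5-CreER libraries Socs3 was highest in library 1, where the 10 genes were lowest. Socs1, on the same list and named after its values were seen, was lowest there, at 2.74, 3.63 and 5.37 CPM. The mean of Lgr5-CreER libraries 2 and 3 was above library 1 for 9 of the 12 genes, and by more than 0.5 on the log2 scale for 1, Socs1.

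**Figure D5:**
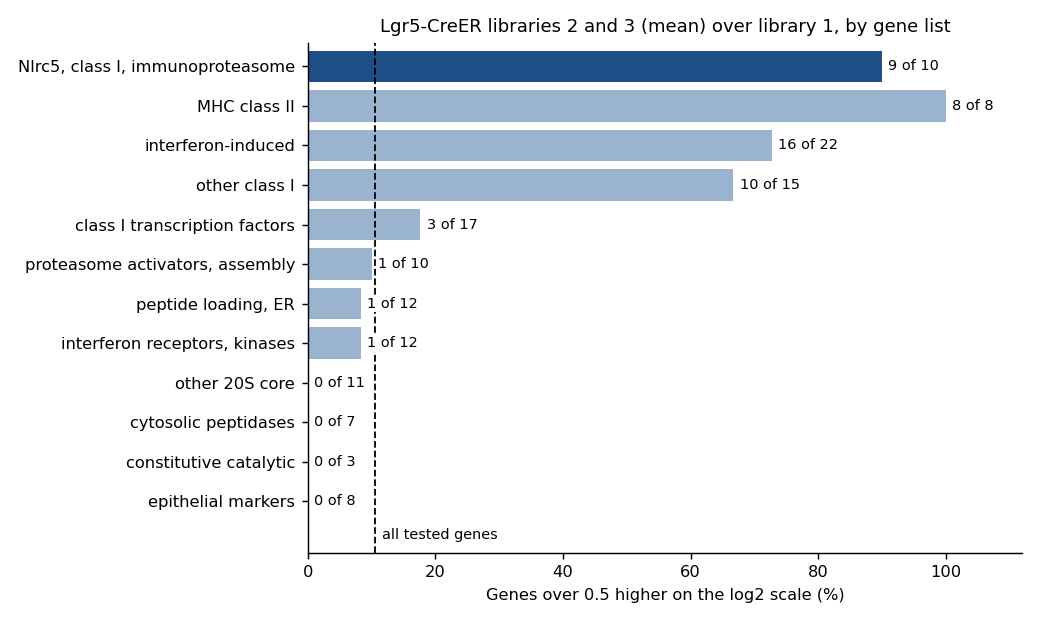
Share of the tested genes of each list (percent) whose mean in Lgr5-CreER libraries 2 and 3 exceeded library 1 by more than 0.5 on the log2 scale, with the numbers of genes beside the bars. The dashed line marks the 10.6% of tested genes, and the bars of the 10 genes, class II, interferon-induced and other class I genes reach well past it while the constitutive catalytic and other 20S core subunits are at 0.

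Immune cells carry much class I. Defining markers of immune cells were at or near 0, though a few listed genes were not. Markers of T cells, intraepithelial lymphocytes and NK cells summed to 4.52 to 11.9 CPM in Hopx-CreER and 10.6 to 14.2 CPM in Lgr5-CreER libraries, with 12 of 18 markers under 1 CPM in each library. Lck, a kinase of T cell receptor signalling, fell in Hopx-CreER cells by 1.48 ± 0.32 (SE, log2; edgeR adjusted p 0.0175), at 2.18, 2.28 and 2.69 CPM against 5.22, 6.31 and 8.47 CPM. It missed the threshold when Hopx-CreER library 1 (0.0527) or 2 (0.0549) or Lgr5-CreER library 2 (0.0592) or 3 (0.0888) was left out, with edgeR adjusted p of 0.00174 to 0.438 over all alternatives. Cd3e, a defining T cell gene named after its values were seen, stood at 0.0753, 0.507 and 0.464 CPM in Hopx-CreER and 0, 0.0864 and 0.0688 CPM in Lgr5-CreER libraries, and Ptprc, carried by all leukocytes, at 0.301, 1.18 and 0 CPM against 0, 0.345 and 0 CPM. Myeloid markers summed to 60.0 to 61.6 CPM and 76.7 to 109 CPM, most of it Cd14, a lipopolysaccharide co-receptor, while 11 of 14 stayed under 1 CPM and Adgre1, Itgax and Flt3 were at 0 in each library. Cd14 fell by 0.68 ± 0.15 (edgeR adjusted p 0.0186), a call that ended without Hopx-CreER library 2 (0.0556), Lgr5-CreER library 2 (0.08) or 3 (0.0866), within 0.0024 to 0.592 over all alternatives. The other 2 tested myeloid genes, Cd68 and Itgam, had log2 fold changes of 0.87 ± 0.49 and 0.33 ± 0.40 (adjusted p 0.288 and 0.639 by edgeR). Summing the same-numbered columns also ended the Lck (0.061) and Cd14 (0.077) calls. B and plasma cell markers summed to 2.71 to 5.94 CPM and 3.28 to 3.61 CPM, with 6 of 8 under 1 CPM. The 2 tested B cell genes pointed in opposite directions. Ms4a1 had counts of 1, 0 and 0 against 12, 15 and 18 (edgeR adjusted p 0.00588), and Cd79b stood at 2.64, 3.97 and 5.38 CPM against 2.34, 1.64 and 2.0 CPM (log2 fold change 0.99 ± 0.38; edgeR adjusted p 0.129). Stromal and endothelial markers (5 of 10 listed) summed to at most 3.55 CPM. The mean of Lgr5-CreER libraries 2 and 3 exceeded library 1 by more than 0.5 (log2) for 2 of 3 tested T/NK genes. That count was 0 of 3 for myeloid and 1 of 2 for B cell genes. Gzma (0, 15 and 16 counts in Lgr5-CreER libraries 1 to 3) and Gzmb (1, 12 and 8) were lowest in library 1. Itgae (59, 44 and 35 counts) was highest there. Gzma and Gzmb were named after their values were seen. The part of immune cells in the values of the 10 genes was not tested.

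Levels of lineage and epithelial marker transcripts differed between the groups. Chga, a marker of enteroendocrine cells, and Muc2, of goblet cells, rose in Hopx-CreER cells by 4.82 ± 0.30 and 2.02 ± 0.19 on the log2 scale (adjusted p 0.000212 and 0.000548 by edgeR), as did Krt8, an epithelial keratin, by 1.00 ± 0.12 (edgeR adjusted p 0.00122). Of 10 lineage markers, 7 were higher and 3 lower in Hopx-CreER cells, and their part in the values of the 10 genes was not tested. Among Lgr5-CreER libraries 1 to 3, the stem cell marker Olfm4 stood at 7808, 7333 and 7489 CPM. The Paneth cell gene Lyz1 stood at 442, 1252 and 745 CPM, and the enterocyte gene Alpi at 21.3, 16.8 and 48.7 CPM. These genes, named after their values were seen, thus varied 1.06, 2.83 and 2.90 times within the group, against a median of 1.81 times for the 10 genes. Library 1 was lowest for Lyz1 and library 2 lowest for Olfm4 and Alpi. Over all 10 lineage markers, the mean of Lgr5-CreER libraries 2 and 3 was above library 1 for 9, against 50% of tested genes. It was above by more than 0.5 on the log2 scale for 3, against 10.6% of tested genes. The median over the markers was 0.31.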

How the data were processed

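A single table was deposited, with raw counts (whole numbers, not normalized) of mouse Ensembl genes in 6 libraries. Per the labels' protocols, libraries were made with SMART-Seq v4 and Nextera XT, which do not mark the strand. The tools kallisto and edgeR and the human build GRCh38 are named without role or version, per the submitters' processing notes, though the gene identifiers belong to mouse. The sources used here do not give how the authors made the counts. Symbols, positions and the longest transcript came from GENCODE M21 (GRCm38), which matched 23479 identifiers and left 86 unmatched. Column names give the sorting gate and no replicate number, and every column was used.

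Counts of all 6 libraries were fitted with the edgeR 4.0.16 quasi-likelihood test (R 4.3.3, TMM, default filterByExpr, Benjamini-Hochberg over 12439 genes, threshold 0.05). SEs are from the F statistic and SDs are over 3 libraries. The series states 3 mice per genotype, but the labels do not say which mouse gave which library and 2 columns share a number, so p-values measure the spread between these libraries. Without molecular identifiers, reads are not independent molecules.

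The 10 genes and all gene lists were chosen with earlier results of these data known. Named genes are the 10, Hopx and Lgr5, the constitutive catalytic subunits, up to 3 genes with the smallest p per list (up to 2 for marker lists) at a mean of at least 1 CPM, and the 5 nearest to Nlrc5; not all are printed. Alternatives were RLE factors, library totals, DESeq2 1.42.0, other filters, leaving out each library, summed columns and GC offsets; leaving out both columns that share a number was added after the data were seen. The fit was tested on simulated data.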

Additional observations from a re-analysis of the deposited data

How the results depend on the processing

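No paired analysis was possible because the columns carry no replicate number that ties them to the numbered sample titles. The genes called higher and lower in Hopx-CreER cells were 1176 and 410. The lower count was 729 with library totals, 670 with DESeq2 and 622 with GC offsets. After summing the same-numbered columns, 659 were higher and 131 lower, and with both left out, so that the lone Lgr5-CreER library is assumed to vary like the Hopx-CreER ones, 180 and 29. Leaving out 1 library gave 606 to 1275 higher and 117 to 593 lower. Of all calls, 74.1% were higher in Hopx-CreER cells, against 56.3% with library totals, which moved the median of all genes by -0.11. The median log2 fold change of the 10 genes was -0.12. It stayed below 0 with other factors, filters, DESeq2 and GC offsets (-0.24 to -0.12), ran from -0.44 to 0.11 when 1 library was left out, and was 0.07 with the columns summed and 0.45 with both left out; the cause was not tested. The log2 fold change of Nlrc5 ran from -2.22 to -1.01 over 14 alternatives. At 60 to 447 counts it is the least deeply measured of the 10 genes.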
